A study of Rattus norvegicus with 12 samples.

Results

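Neurons pass signals by fusing transmitter-filled vesicles with the cell membrane, and 8 rat genes of this machinery were examined in the contused spinal cord of AN and SD rats. They are Snap25, Cplx1, Syt1, Syt2 and Vamp1, which encode the SNARE machinery and its calcium control, and Syn1, Syp and Sv2b, which encode proteins bound to or set in the vesicle membrane. They were taken by name, with earlier results of these data known, and all 8 were found among the 17423 genes that each of the 2 deposited tables lists.

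RNA was sequenced from 12 female rats in 4 groups of 3. AN rats (Hsd:RH-rnu/rnu) are athymic nude rats that lack a functional thymus and so have few mature T cells, and SD rats (Hsd:SD) are immunocompetent Sprague-Dawley rats. All groups were 16 to 18 weeks old at injury and received a moderate contusion of 200 kdyn, so that no group is uninjured. Rats were perfused with buffered saline and a 1 mm segment through the injury was taken at 1 week (acute phase) or 8 weeks (chronic phase). AN and SD rats differ in genetic background as well as in T cells, so these cannot be told apart. Each group of 3 rats has 1 FPKM value per gene, which is the count of sequenced fragments scaled to the length of the transcript and to a measure of library size. With no value per rat, no difference given here could be set against the spread between rats, and no test was made. The fragments behind each gene are not given either.

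SNARE proteins sit on the vesicle and on the cell membrane and zip together to pull both membranes into contact. SNAP-25 and a syntaxin hold the cell membrane side, and VAMP1 or VAMP2 (synaptobrevins) the vesicle side. Synaptotagmins sense calcium, complexin holds the part-zipped SNARE complex ready, and synapsin, synaptophysin and the SV2 proteins belong to the vesicle itself. In the spinal cord and brainstem, VAMP1 and synaptotagmin 2 are known for their high use at fast synapses, including those of motor neurons on muscle. The mRNAs of these genes are made in neuron cell bodies, while many of the proteins act at distant terminals.

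The promoters of the 8 genes were read from RefSeq on the GRCr8 build (the expression tables use the older RN4 build). Whether they bear on the strain difference was not tested. The table of promoters held 7 of the 8 genes, Snap25 being the gene without an entry. In the 250 bases before the annotated start, the 7 genes had between 50.4% and 69.6% G and C, with a median of 66.0% against 51.2% over all 33469 promoters. That set was not limited to the genes of the expression tables, so its shares are a loose background for the 7. The cyclic AMP response element TGACGTCA, the binding motif of CREB-family factors, was found in Vamp1 and Syn1, that is in 2 of 7, against 1.59% of all promoters. The GC box GGGCGG, the motif of SP1-family factors, was found in 4 of 7 (Cplx1, Syt1, Vamp1 and Syp) against 30.5%. Both strands were read. The following are the promoters with the cyclic AMP response element, with the element in capitals, and that of Cplx1 as an example with GC boxes, with the boxes in capitals. They were chosen after the matches had been seen.
Syn1: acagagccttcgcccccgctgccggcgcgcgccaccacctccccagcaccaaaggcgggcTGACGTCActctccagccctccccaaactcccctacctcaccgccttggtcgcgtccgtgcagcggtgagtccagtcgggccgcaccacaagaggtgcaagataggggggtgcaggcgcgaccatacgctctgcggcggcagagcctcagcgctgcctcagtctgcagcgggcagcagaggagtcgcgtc
Vamp1: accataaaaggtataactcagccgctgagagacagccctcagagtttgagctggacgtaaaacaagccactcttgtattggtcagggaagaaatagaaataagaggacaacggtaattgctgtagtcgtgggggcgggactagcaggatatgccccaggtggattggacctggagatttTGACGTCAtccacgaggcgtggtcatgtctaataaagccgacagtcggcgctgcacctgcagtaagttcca
Cplx1: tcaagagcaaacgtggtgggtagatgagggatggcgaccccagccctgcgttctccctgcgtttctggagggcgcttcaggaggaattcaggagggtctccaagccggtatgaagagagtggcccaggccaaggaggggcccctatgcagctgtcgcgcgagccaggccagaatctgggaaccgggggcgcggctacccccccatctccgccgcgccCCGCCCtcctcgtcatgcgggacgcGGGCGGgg
The Syn1 sequence lies at chrX:3725495-3725744 on the plus strand and its element begins 190 bases before the start. The Vamp1 sequence lies at chr4:159698644-159698893 on the plus strand and its element begins 71 bases before the start. The Cplx1 sequence lies at chr14:1328823-1329072 on the plus strand and its 2 GC boxes, of which the farther is on the opposite strand, begin 33 and 8 bases before the start. In all 7 motifs were searched. The shorter motif TGACG, which lies within TGACGTCA, was in 3 of 7 against 18.2% of all promoters, and CCAAT in 2 of 7 against 34.0%. TATAAA was in 0 of 7 against 12.9%. Of 2 stretches of the RE1 site, the motif of the neuronal repressor REST, TTCAGCACC was in 0 of 7 against 0.305% and GGACAG in 0 of 7 against 18.2%. A match of letters says nothing of whether a factor binds there. Sites outside the 250 bases, or cut by their edge, were not counted, so a 0 is not absence of a site. The Syn1 sequence opens with acag, the last letters of GGACAG, and a match cut at that edge would be missed.

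All 8 genes had a lower FPKM in AN than in SD rats in both phases. At 1 week 8 of 8 were at least 2-fold lower, and all 8 were also at least 4-fold lower. The median log2FC, the log2 ratio of AN to SD FPKM, was -3.05, and it ranged from -4.82 (Syt2) to -2.12 (Syt1). Among all 11068 genes with a mean FPKM of at least 1 over both strains, 10.1% were at least 2-fold lower in AN rats, 3.15% were at least 4-fold lower, 1.89% were at least 2-fold higher, and the median log2FC was 0.0066. At 8 weeks 7 of 8 were at least 2-fold lower and 6 at least 4-fold lower, with a median log2FC of -2.26. Among 11198 genes, 5.55% were at least 2-fold lower, 1.93% at least 4-fold lower and 2.05% at least 2-fold higher in that phase. The 8 genes were chosen with earlier results known, and 7 were named from a shortened copy of the gene listing published with the study. Of all genes named from that copy, 54.4% were at least 2-fold lower at 1 week and 27.8% at 8 weeks. The summed FPKM of the 8 genes was 466 in SD rats against 43.3 in AN rats at 1 week, a 10.8-fold difference, and 547 and 108 at 8 weeks, a 5.05-fold difference. In whole tissue, fewer cells of a type and less RNA per cell cannot be told apart.

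**Figure D1:**
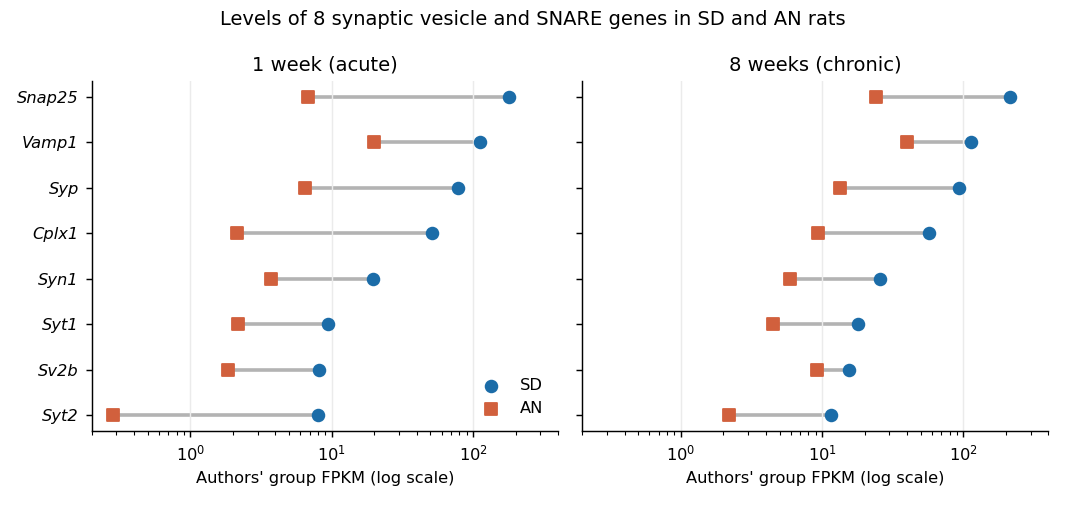
Group FPKM (log scale, authors' values, 3 rats per group) of the 8 genes in SD rats (circles) and AN rats (squares) at 1 week (left) and 8 weeks (right). Every square lies to the left of its circle, and the widest gap is that of Syt2 at 1 week, from 7.97 to 0.282.

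Snap25 (RGD:3728, chr3:124806636-124894653 on RN4), which encodes the SNARE protein of the cell membrane that botulinum toxin A cuts, had the highest FPKM of the 8 in SD rats. Its acute FPKM was 179 in SD rats against 6.79 in AN rats, and its chronic FPKM was 213 and 24.1. It was thus 26.3-fold lower in AN rats at 1 week (log2FC of -4.72) and 8.84-fold lower at 8 weeks (log2FC of -3.14), the lowest chronic log2FC of the 8. In order from the lowest acute log2FC it was number 15 of the 11068 genes. Snap25 made up 38.3% of the summed FPKM of the 8 genes in acute SD rats but 15.7% in acute AN rats, and 38.9% and 22.2% at 8 weeks. The member with the highest FPKM in AN rats was Vamp1 in both phases.

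Cplx1 (RGD:70944, chr14:1732343-1763172), which encodes complexin 1, was close to Snap25 in the size of its difference. Its acute FPKM was 51.0 in SD rats against 2.13 in AN rats, which is 23.9-fold lower in AN rats. Its chronic FPKM was 57.2 and 9.33, which is 6.13-fold lower. The ratio of Cplx1 to Snap25 FPKM was 0.285 in SD rats against 0.314 in AN rats at 1 week, and 0.269 and 0.387 at 8 weeks. The ratio differed little between strains at 1 week, while both genes were far lower in AN rats.

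Syt1 (RGD:3803, chr7:47243374-47795496) and Syt2 (RGD:3804, chr13:47690517-47699094) encode the fast calcium sensors of release. Syt1 had an acute FPKM of 9.37 in SD rats against 2.15 in AN rats and a chronic FPKM of 18.1 and 4.46. Its fold difference was nearly the same in both phases, 4.35 and 4.05. Syt2 had an acute FPKM of 7.97 in SD rats against 0.282 in AN rats and a chronic FPKM of 11.6 and 2.21. Syt2 was thus 28.3-fold lower in AN rats at 1 week, the largest ratio of the 8 genes as deposited, and 5.25-fold lower at 8 weeks. The acute AN value is the lowest of any of the 8 genes in any group, and with 1 FPKM added to each value the acute log2FC of Syt2 was -2.81 instead of -4.82. Its place as the largest was then lost, since Snap25 had -4.53, Cplx1 -4.05 and Syp -3.41 on that scale. The ratio of Syt2 to Syt1 was 0.850 in acute SD and 0.131 in acute AN rats, and 0.641 and 0.495 at 8 weeks. So the ratio of the 2 mRNAs was lower in AN than in SD rats, more so at 1 week, where it rests on the low Syt2 value. The pairs of related genes compared here and below were chosen with their values known.

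Vamp1 (RGD:3948, chr4:161333660-161340447), which encodes the vesicle SNARE synaptobrevin 1, had an acute FPKM of 113 in SD rats against 19.8 in AN rats. Its chronic FPKM was 113 and 39.7. Vamp1 was 5.68-fold lower in AN rats at 1 week and 2.85-fold lower at 8 weeks, with no difference between the phases in SD rats (1.00-fold) and a 2.00-fold higher value at 8 weeks in AN rats. Its relative Vamp2, the synaptobrevin most used in the forebrain and also found outside neurons, had an acute FPKM of 105 and 57.0 and a chronic FPKM of 138 and 118. The log2FC of Vamp2 was -0.88 and -0.23, short of 2-fold in both phases. The ratio of Vamp1 to Vamp2 was 1.07 in SD rats against 0.348 in AN rats at 1 week and 0.818 and 0.336 at 8 weeks. In AN rats Vamp2 therefore had the higher FPKM of the pair at both time points.

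Among the genes of the vesicle itself, Syp (RGD:3802, chrX:26890306-26905319), which encodes the membrane protein synaptophysin, differed most. Its acute FPKM was 78.5 in SD rats against 6.48 in AN rats, a 12.1-fold difference, and its chronic FPKM was 92.9 and 13.4, a 6.92-fold difference. Syn1 (RGD:3797, chrX:12512240-12556160), which encodes synapsin 1, a protein that tethers vesicles in reserve, had an acute FPKM of 19.8 in SD rats against 3.75 in AN rats. Its chronic FPKM was 25.8 and 5.94, and the fold differences were 5.27 and 4.35. The Syn1 value is less certain than the others, for a pair of reasons. Its identifier was named by its place among neighbouring genes, and its locus holds 2 unnamed identifiers on the opposite strand. Those 2 were 209 and 426 FPKM in acute SD rats and 265 and 580 in acute AN rats, so they did not share the lower AN value, and whether the authors' counting used the strand is not given in the sources used here.

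Sv2b (RGD:619716, chr1:130683154-130884752), which encodes a glycoprotein of the vesicle membrane, was the member nearest to equal at 8 weeks. Its acute FPKM was 8.13 in SD rats against 1.86 in AN rats, a 4.38-fold difference, and its chronic FPKM was 15.4 and 9.14, a 1.69-fold difference. It is the member that did not reach 2-fold at 8 weeks (log2FC of -0.76). Its relatives differed less at 1 week, where Sv2a was 38.1 in SD rats against 22.7 in AN rats (log2FC of -0.75) and Sv2c was 5.64 and 2.48 (log2FC of -1.19). At 8 weeks the log2FC was -0.66 for Sv2a and -1.33 for Sv2c, so that Sv2b lay between them.

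The strain difference was smaller at 8 weeks for 8 of 8 genes. The chronic minus the acute log2FC ranged from 0.10 (Syt1) to 2.43 (Syt2), with a median of 1.18. This count is near its background, since 91.7% of the 1108 genes that were at least 2-fold lower in AN rats at 1 week also had a smaller absolute log2FC at 8 weeks, with a median difference of 0.82. For Syt1 the order of the phases turns with a pseudocount of 1 FPKM, under which its log2FC was -1.72 at 1 week and -1.80 at 8 weeks. The 2 tables were normalized separately by the authors, so levels across phases are given with that limit. Within AN rats the chronic FPKM was higher than the acute FPKM for all 8 genes, by 1.59-fold (Syn1) to 7.84-fold (Syt2). Within SD rats it was higher by 1.00-fold (Vamp1) to 1.93-fold (Syt1). Over all genes the median log2 of chronic over acute FPKM was 0.011 for SD and 0.023 for AN rats. Sv2b (4.92-fold), Cplx1 (4.37-fold) and Snap25 (3.55-fold) followed Syt2 in AN rats, while Syt1 was about equally higher in both strains, at 1.93-fold in SD rats against 2.07-fold in AN rats.

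**Figure D2:**
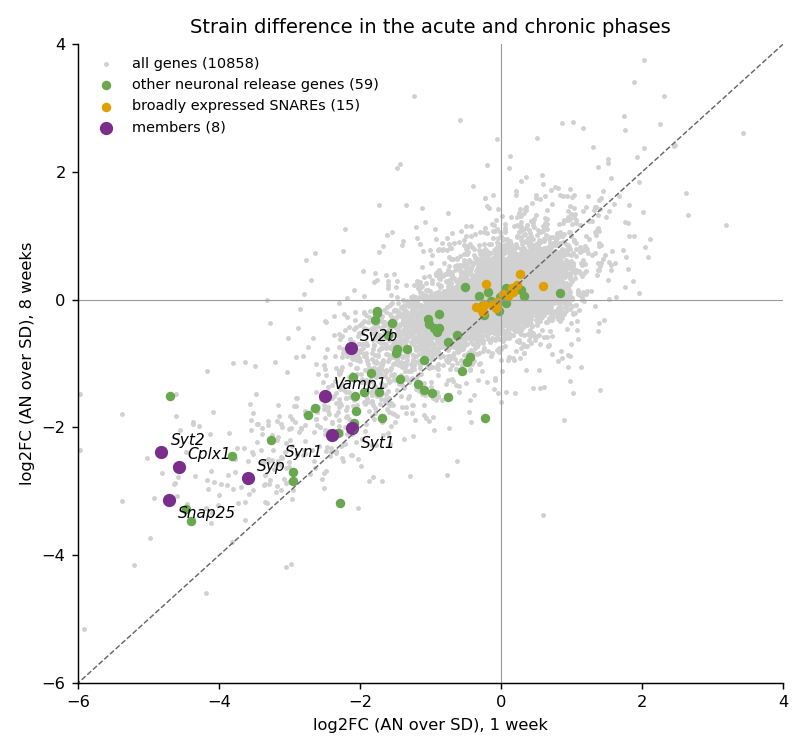
The log2FC (AN over SD) at 1 week (x axis) against that at 8 weeks (y axis) for 10858 genes (grey), with the 8 genes, the other neuronal release genes and the broadly expressed SNAREs in colour. The dashed line marks equal values and 9 genes lie outside the axes. The 8 genes lie at the lower left, above the line, from -4.82 to -2.12 on the x axis.

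**Figure D3:**
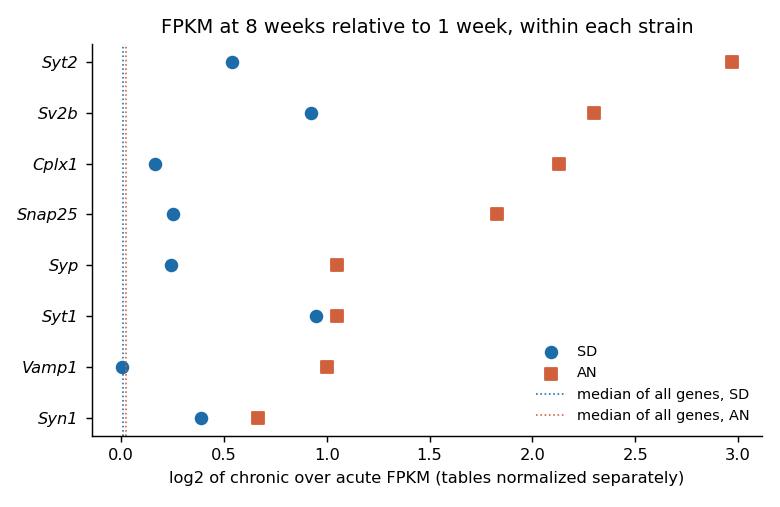
The log2 of the chronic over the acute FPKM for each of the 8 genes in SD rats (circles) and AN rats (squares), from 2 tables normalized separately. Squares run from 0.66 to 2.97 and circles from 0.0046 to 0.95, and each square lies to the right of its circle. Dotted lines are the medians of all genes.

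The rest of the release machinery was read from lists of 87 other neuronal genes, of which 70 could be named and 59 at 1 week and 65 at 8 weeks passed the FPKM filter. At least 2-fold lower in AN rats were 33 of 59 at 1 week, with a median log2FC of -1.10, and 32 of 65 at 8 weeks, with a median of -0.97. None was at least 2-fold higher in either phase. Without the filter it was 44 of the 70 at 1 week and 34 of 70 at 8 weeks. How a gene got its name moves with these counts. The tables carry identifiers alone, and some symbols came from a shortened copy of the gene listing published with the study, which held 1997 symbols. Of the genes named from it 54.4% were at least 2-fold lower at 1 week, against 1.04% of the other directly named genes and 2.57% of those named by gene order. At 8 weeks the shares were 27.8%, 1.08% and 1.48%. Among the release genes, 29 of 35 named from that copy were at least 2-fold lower at 1 week and 27 of 40 at 8 weeks, against 4 of 24 and 5 of 25 of those named otherwise. Those 4 at 1 week were the synuclein gene Sncg (log2FC of -1.76), Amph (-1.48), the synapsin gene Syn3 (-1.44) and Syt9 (-1.02). Those 5 at 8 weeks were Rims4 (-2.16), Syt4 (-1.86), Pacsin1 (-1.53), Syn3 (-1.25) and Syt17 (-1.12). They were singled out after their values were seen, apart from Amph. Of the 8 genes themselves, 7 were named from that copy, Syn1 being the exception. Genes lower in AN rats are thus more often among those with a name, and the counts are read with that limit.

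The genes of the vesicle membrane and its transporters had the lowest median of the lists at 1 week, with 12 of 16 at least 2-fold lower at 1 week (median log2FC of -2.02) and 10 of 16 at 8 weeks (-1.42). With direct names alone the medians were -2.96 and -2.20, and with a mean FPKM of at least 5 the acute count was 7. Slc18a3, which loads acetylcholine into vesicles and marks motor neurons, had an acute FPKM of 6.39 in SD rats against 0.246 in AN rats (log2FC of -4.70) and a chronic FPKM of 5.22 and 1.82 (-1.52). Slc32a1, the vesicular transporter of GABA and glycine, had an acute FPKM of 8.73 and 0.393 (-4.47) and a chronic FPKM of 12.5 and 1.29 (-3.28). Both are transporters of particular kinds of neuron. Sncb, which encodes beta-synuclein, was 52.5 and 2.48 at 1 week (-4.40) and 61.2 and 5.56 at 8 weeks (-3.46). Rph3a, whose product rabphilin binds the vesicle GTPase RAB3A, was 11.5 and 0.816 (-3.82) and 15.1 and 2.77 (-2.44). As deposited, Slc18a3 had the largest shift between phases of these 4. Its acute AN value of 0.246 is lower than that of Syt2 (0.282), whose acute log2FC moved with a pseudocount. Slc32a1 and Rph3a also lay below 1 FPKM in acute AN rats, so the size and order of these differences are uncertain.

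In the fusion machinery 7 of 13 genes were at least 2-fold lower at 1 week (median log2FC of -1.10) and 7 of 15 at 8 weeks (-0.97). Without the filter it was 11 and 7, and with direct names alone the acute median was -1.85. With a mean FPKM of at least 5 the counts were 6 and 4. Unc13c, which encodes a vesicle priming factor, had an acute log2FC of -2.96 and a chronic log2FC of -2.83. Snph, which encodes syntaphilin, had a log2FC of -2.10 and -1.22. Napb, which encodes the neuronal form of the SNAP protein that helps take used SNARE complexes apart, had -2.10 and -1.94. Not all of the list lay below 0, and its highest acute value was 0.83.

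Among the other synaptotagmins 7 of 10 were at least 2-fold lower at 1 week (median log2FC of -1.19) and 6 of 11 at 8 weeks (-1.12). With a pseudocount of 1 FPKM these counts were 4 and 3, and with a mean FPKM of at least 5 they were 3 and 3. Syt7, a slower calcium sensor of high affinity, had a log2FC of -2.08 and -1.51 at 1 and 8 weeks. Syt5 had -1.84 and -1.15, Syt16 -1.69 and -1.86, and Syt12 -1.50 and -0.84. All had a smaller acute difference than Syt1 (-2.12) or Syt2. In the active zone, the docking site of vesicles, 3 of 7 genes were at least 2-fold lower at 1 week (median of -0.98) and 7 of 10 at 8 weeks (-1.44). These counts cannot be compared between phases, since Rims1, Rims4 and Erc2 passed the filter at 8 weeks alone, and without the filter 6 of 10 were at least 2-fold lower at 1 week, with a median of -1.51. With a pseudocount of 1 FPKM the chronic count was 4, and with direct names alone the acute median was -1.73. Among the genes of this list past the filter at 1 week, the lowest acute values were those of Ppfia3 (-2.06), which encodes liprin-alpha 3, Bsn (-1.94), which encodes the scaffold bassoon, Ppfia2 (-1.73) and Rims2 (-0.98). With a mean FPKM of at least 5 this list kept only 2 genes at 1 week (Erc1 and Ppfia1, median of 0.024) and 3 at 8 weeks (with Ppfia4, median of 0.033).

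Of the genes that recover vesicles by endocytosis, 4 of 13 were at least 2-fold lower at 1 week (median of -0.76) and 2 of 13 at 8 weeks (-0.37). With direct names alone these counts were 3 and 1. The lowest acute values of this list were those of the clathrin adaptor Snap91 (-2.74, and -1.80 at 8 weeks), the uncoating factor Dnajc6 (-1.79 and -0.32), the endophilin gene Sh3gl2 (-1.55 and -0.37) and Amph (-1.48 and -0.78), which encodes amphiphysin. The SNAREs and partners that most cells use in the Golgi, in endosomes and at the cell membrane were near equal between strains. Of 31 such genes 15 could be named, and 0 of 15 were at least 2-fold lower or higher in either phase, with a median log2FC of -0.064 and 0.058. Their log2FC ran from -0.36 to 0.60 at 1 week and from -0.19 to 0.41 at 8 weeks. Of these 15, 14 were named other than from the shortened copy, where few genes of any kind were at least 2-fold lower (1.04% and 2.57% at 1 week, above), so the count of 0 is at the background of its way of naming.

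**Figure D4:**
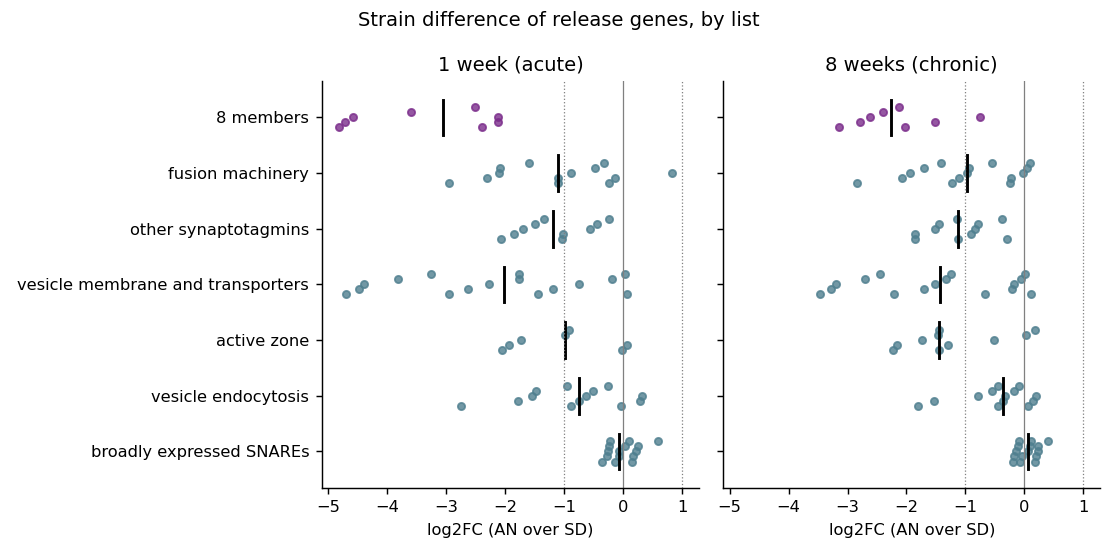
The log2FC (AN over SD) of each gene past the FPKM filter (points) by list, with the list median (bar), at 1 week (left) and 8 weeks (right). Dotted lines mark 2-fold. The 8 genes have medians of -3.05 and -2.26, and the broadly expressed SNAREs lie between -0.36 and 0.60.

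The genes whose pattern over the 4 groups was most like the mean of the 8 were found by the distance between log2 FPKM values, each centred on its mean, among 9253 named genes. Among the nearest were Syn2 (distance of 0.135), which encodes synapsin 2, Ube2ql1 (0.146), Dync1i1 (0.173), which encodes a dynein subunit, and Disp2 (0.207). Syn2 had an acute FPKM of 11.4 in SD rats against 1.19 in AN rats and a chronic FPKM of 17.4 and 3.79. Of the 8 themselves Syp lay nearest to their mean (0.606), and Sv2b lay farthest (1.45). Of all 11180 genes compared, 71 lay nearer to that mean than Syp and 403, the other members included, nearer than Sv2b, so many genes shared the pattern. The nearest genes given here all carry names from the shortened copy. The likeness rests on 4 values for each gene.

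Markers of neurons and of other cell types also differed between strains. Named were 10 of 12 neuron, 6 of 8 oligodendrocyte, 3 of 7 astrocyte and 7 of 7 Schwann cell markers. It was 7 of 9 for macrophages and microglia, and 3 of 6 each for endothelium and fibroblasts. Neuron markers were lower in AN rats, with 10 of 10 at least 2-fold lower at 1 week (median log2FC of -2.19) and 9 of 10 at 8 weeks (-1.47), with Eno2 (-0.87) short of it. The share over all genes was 10.1% at 1 week and 5.55% at 8 weeks. All of these neuron markers were named from the shortened copy, where the share was 54.4% and 27.8%. Tubb3, Nefl and Nefm, which encode a neuronal tubulin and 2 neurofilaments, had an acute log2FC of -2.37, -4.56 and -4.37 and a chronic log2FC of -1.27, -2.04 and -1.95. The summed FPKM of the neuron markers was 1480 in SD rats against 321 in AN rats at 1 week and 1279 and 468 at 8 weeks. None of them was at 0 in any group. The part of the neuron markers in the difference of the release genes was not tested.

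Glial markers were also lower in AN rats at 1 week and were short of 2-fold at 8 weeks. At least 2-fold lower were 4 of 6 oligodendrocyte markers (median log2FC of -1.35), 3 of 3 astrocyte markers (-1.69) and 5 of 7 Schwann cell markers (-1.38) at 1 week. At 8 weeks it was 0 of 6 (-0.21), 0 of 2 (-0.38) and 0 of 7 (0.27). Gfap was listed at 0 in chronic SD rats against 5824 FPKM in chronic AN rats and 3957 in acute SD rats, and this gene was left out of the chronic count. A 0 in these tables can be a failed estimate, so it is not read as absence of the RNA. So the chronic difference of the release genes stood beside lower neuron markers and glial markers within 2-fold. In the macrophage and microglia list 3 of 7 were at least 2-fold higher and 1 lower at 1 week (median of 0.66), and 1 higher and 1 lower at 8 weeks (-0.029). Higher at 1 week were Itgam (1.12), Cd14 (1.17) and Cd163 (1.95), the last also at 8 weeks (1.84), and lower in both phases was Lyz2 (-4.19 and -4.60), all but Itgam named after their values were seen. The fibroblast markers had medians of 0.71 and 0.72 with 0 of 3 past 2-fold, and endothelial markers -0.11 and 0.21 with 0 of 3. Summed FPKM in SD and AN rats was 3054 and 4172 for the macrophage list and 2097 and 3490 for the fibroblast list at 1 week. In the T cell list 4 of 8 passed the filter, with medians of -0.35 and -0.31. Over all 8 genes the acute median was -1.41, with 5 at least 2-fold lower, and with a mean FPKM of at least 5 (Cd4 and Cd8a alone) it was 0.093. Of the 4, Cd3g (-2.37) and Cd4 (-1.20) were at least 2-fold lower and Cd8a (1.39) higher at 1 week, and Cd2 (1.02) higher at 8 weeks. The receptor chain genes Cd3d, Cd3e and Cd3g had an acute FPKM of 0.798, 1.04 and 2.74 in SD and 0.189, 0.339 and 0.531 in AN rats. The part of these lists in the difference of the 8 genes was not tested. Most marker genes lower in AN rats, and all of the Schwann cell markers, carry names from the shortened copy. Of all genes named from it, 54.4% were at least 2-fold lower at 1 week. The oligodendrocyte and Schwann cell shares at 1 week were 66.7% and 71.4%, and they are read with that limit.

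**Figure D5:**
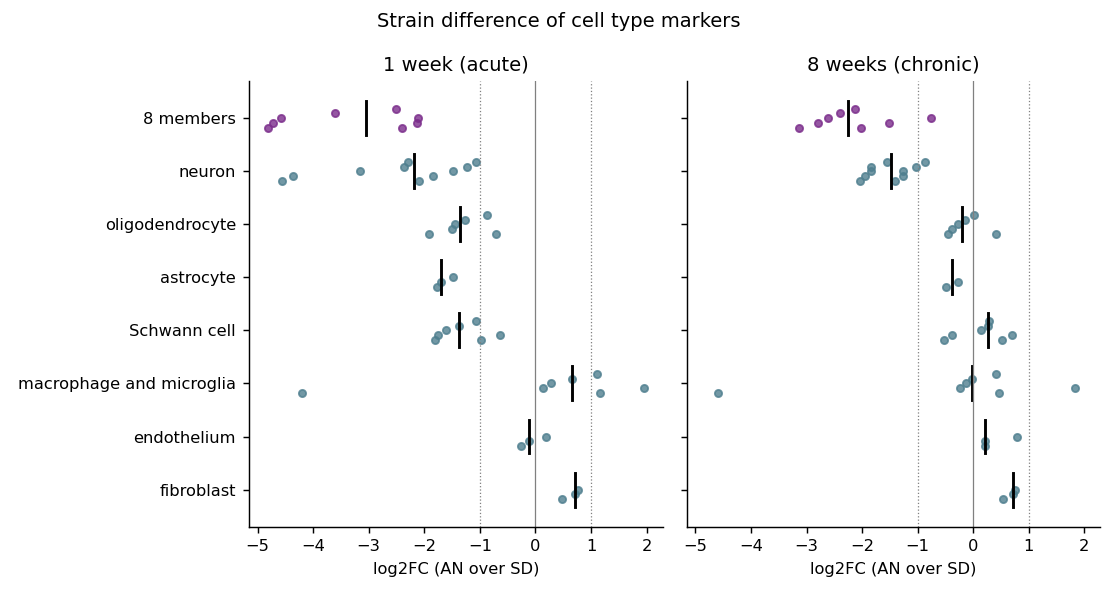
The log2FC (AN over SD) of cell type markers past the FPKM filter (points), with list medians (bars), at 1 week (left) and 8 weeks (right), with dotted lines at 2-fold. Neuron markers lie below 0 in both phases, with medians of -2.19 and -1.47, while the oligodendrocyte, astrocyte and Schwann cell medians lie below -1 at 1 week and between -0.38 and 0.27 at 8 weeks.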

How the data were processed

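RNA of 12 rats in 4 groups of 3 was sequenced. Per the labels (the submitters' processing notes) and the study's methods, the authors trimmed adapters with cutadapt, aligned reads with TopHat (1.5.0) to the RN4 build, assembled transcripts with Cufflinks (0.0.6) and compared strains within each phase with CuffDiff. The methods name quartile normalization for the Cufflinks step. They deposited 2 tables of 17423 genes, each normalized separately, with 1 FPKM value per group as the authors' pooled value. These tables also hold the authors' fold changes, test statistics, p-values and q-values, which are their own findings and were not used. Reads per gene are not given, so the depth behind a value is unknown.

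The log2FC was computed as log2 of AN over SD FPKM without a pseudocount. Genes with a mean FPKM of at least 1 and both strains above 0 were kept, and a gene was counted where it differed at least 2-fold. Groups were taken from the labels, and with 1 value per group no test was possible. Alternatives were a pseudocount, other filters, scalings and folds, and direct names. The members and lists were chosen with earlier results of these data known. Named genes were all members, up to 4 per release list with the largest absolute acute log2FC, the 5 nearest patterns, and up to 3 markers per list in list order. Vamp2, Sv2a, Sv2c and a few genes behind small counts were added after their values were seen. Some genes that the rule names are not reported here.

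The tables give RGD identifiers without symbols. In all 12458 of 17423 (71.5%) were named, 4493 directly (1780 of them from a copy, shortened to 1997 symbols, of the gene listing published with the study) and 7965 by gene order and strand in the GRCr8 gene table. Of 1188 held-out names given again by gene order, 1153 (97.1%) were right. The naming settings were chosen among several tried with this accuracy in view. The rule for a gene that encloses others, which named Syn1, was written after Syn1 was found unnamed. It was not part of that check, so the accuracy does not cover it. Coordinates are those of the tables, counted from 1, and promoters are RefSeq sequences matched by symbol. The counting and ratio steps were tested on simulated data. Python 3.11.15, pandas 2.3.3, numpy 2.4.6 and matplotlib 3.10.9 were used.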

Additional observations from a re-analysis of the deposited data

How the results depend on the processing

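No paired analysis was possible because the tables hold 1 value per group, and for the same reason no rat could be left out in turn. Under 8 alternatives 530 values were recomputed, of which 484 stayed within 1.5-fold of the reported value, a tolerance chosen because there is no value per rat. The log2FC of no member was above 0 under any of them. All 8 members were at least 2-fold lower in the acute phase under each setting that kept them. With a mean FPKM of at least 5 (6 members), and with direct names alone (7 members, without Syn1), fewer were kept. The chronic count ran from 6 (4-fold, or direct names) to 8 (1.5-fold). The acute log2FC of Syt2 was the single member value to move by more, to -2.81 with a pseudocount of 1 FPKM. The count of other neuronal release genes at least 2-fold lower in the acute phase, 33, was 20 with a mean FPKM of at least 5 and 15 at 4-fold. In the chronic phase the 32 became 16 and 10. Both follow from fewer genes tested or a stricter fold. The chronic median of the active zone list turned from -1.44 to 0.033 with a mean FPKM of at least 5, where 3 genes were left. In all 41 values of single lists and genes, that of Syt2 included, moved by more than 1.5-fold, among them the acute median of the active zone list, from -0.98 to 0.024. Rescaling each column to equal sums shifted all log2FC by -0.095 and -0.069, and centring lowered them by the medians of all genes, 0.0066 and 0.0075.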
